A study of Mus musculus with 6 samples.

Results

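The 10 genes described here mark mast cells and were counted in RNA-seq libraries of blood endothelial cells (BECs) sorted from mouse embryonic skin. They are Mrgprb1, Mrgprb2, Mcpt4, Cma1, Cpa3, Tpsb2, Tpsab1, Hdc, Ms4a2 and Fcer1a, and all 10 were found by symbol among the 24421 genes of the count table. They were chosen by name because Mrgprb1 had far fewer reads in the skin library labelled Dot1l knock-out than in its control. That choice was based on the reads in all 6 libraries and the ratio between the skin libraries, so the values below are a description and none of them was tested.

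Mast cells are hematopoietic cells that settle in connective tissue, often beside blood vessels and nerves, and pack histamine and proteases into granules bound to heparin. They empty these granules when antigen cross-links IgE on the high-affinity IgE receptor, or when basic peptides and drugs bind receptors of the Mrgpr family. In mouse skin the chymases Mcpt4 and Cma1, the tryptases and carboxypeptidase Cpa3 are typical granule contents, and mast cell precursors already enter the skin before birth.

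Dot1l encodes a histone methyltransferase, and the study asked how endothelial transcripts depend on it. Both skin libraries came from E15.5 littermates that carried floxed Dot1l (2f/2f). The Cont embryos were Tie2-Cre(-), which the labels call wild type, and the cKO embryos were Tie2-Cre(+). Tie2-Cre is active in endothelium and also in much of the hematopoietic lineage, so it does not separate an endothelial deletion from one in blood-derived cells. Per the methods of the study, each of these libraries pooled RNA of several embryo skins, from cells that were depleted of CD45 and F4/80 and negative for Lyve1, and its scheme of the isolation adds CD31 as a positive marker. The other 4 libraries were cultured BECs of the embryonic yolk sac line CRL-2581 and embryonic dermal lymphatic endothelial cells (LECs, C57-6064L), each transduced either with empty lentivirus (Cont) or with a lentivirus that brings dCas9-VP64 to the Dot1l promoter (OE-BECs and OE-LECs). Each of the 6 conditions had 1 library, so no difference could be set against the spread between replicates.

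The deposited counts summed to 8863349 reads in the Cont skin library, 11084686 in the cKO skin library and 13933651 to 31032461 in the 4 cultured libraries. Levels are given in CPM, the reads of a gene per 1000000 reads of its library. Differences are log2 ratios of counts normalized by the median of ratios method. Their 95% intervals are exact (Clopper-Pearson), come from the reads of the pair and cover counting error only. The rule of the study calls a gene where 1 library exceeds the other more than 3-fold in normalized counts and reaches at least 5 of them in the skin pair, or 3 in a cultured pair. Dot1l itself had 762 reads in Cont and 944 in cKO (log2 ratio -0.07, 95% interval -0.21 to 0.07), 1972 and 4208 in Cont and OE-BECs, and 2490 and 6720 in Cont and OE-LECs. Counts over the whole gene do not separate its floxed part, so they do not check the deletion, and that skin library is called the cKO-labelled library.

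Markers of the labelled cell types were checked in the same way. Pecam1, which encodes CD31, had 1178.0 CPM in Cont and 750.0 CPM in the cKO-labelled library, and all 12 blood endothelial markers had reads in both. Ptprc, which encodes the CD45 used for depletion, had 136.0 and 211.0 CPM, Adgre1 (F4/80) 194.0 and 308.0 CPM, and Lyve1 1027.3 and 1800.6 CPM, so RNA of all 3 antigens of the negative sort was present in both skin libraries. Prox1, the defining transcription factor of lymphatic endothelium, had 1304 and 883 reads in the skin BEC libraries and 0 reads in all 4 cultured libraries. In both libraries labelled LEC, Prox1 and Pdpn were at 0 and Mmrn1 and Reln at 0 or 1 read, while Lyve1 (1998.1 and 1962.4 CPM) and Flt4 (107.0 and 130.0 CPM) were present. LEC is therefore used below as the label of these libraries.

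The stretches of 250 bases before the start of 5 of the genes are printed to show what the promoters of the gene with the largest difference, its nearest relative among the 10 genes and the chymase and carboxypeptidase genes have in common. They are from RefSeq, build GRCm38.p6, read 5' to 3' on the strand of the gene. Capitals mark GATA motifs, which are AGATAA or its forms TGATAA and AGATAG as well as TGATAG, on either strand.
Mrgprb1: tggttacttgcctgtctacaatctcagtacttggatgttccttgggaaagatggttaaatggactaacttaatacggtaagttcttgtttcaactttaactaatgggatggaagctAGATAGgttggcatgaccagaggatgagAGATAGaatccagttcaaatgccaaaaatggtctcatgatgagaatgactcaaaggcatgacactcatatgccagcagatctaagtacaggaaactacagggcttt
Mrgprb2: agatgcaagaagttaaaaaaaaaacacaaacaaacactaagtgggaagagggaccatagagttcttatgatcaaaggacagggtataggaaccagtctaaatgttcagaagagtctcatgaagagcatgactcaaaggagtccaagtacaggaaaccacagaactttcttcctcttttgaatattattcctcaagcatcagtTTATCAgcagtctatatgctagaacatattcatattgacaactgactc
Mcpt4: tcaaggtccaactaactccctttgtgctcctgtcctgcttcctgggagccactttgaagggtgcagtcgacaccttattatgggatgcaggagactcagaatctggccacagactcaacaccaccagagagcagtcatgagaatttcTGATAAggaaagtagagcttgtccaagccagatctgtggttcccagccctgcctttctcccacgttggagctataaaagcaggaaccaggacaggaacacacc
Cma1: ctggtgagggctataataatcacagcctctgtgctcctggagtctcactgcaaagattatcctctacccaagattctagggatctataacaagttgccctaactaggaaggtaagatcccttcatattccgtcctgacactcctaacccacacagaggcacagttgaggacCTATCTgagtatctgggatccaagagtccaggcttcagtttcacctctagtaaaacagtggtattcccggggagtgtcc
Cpa3: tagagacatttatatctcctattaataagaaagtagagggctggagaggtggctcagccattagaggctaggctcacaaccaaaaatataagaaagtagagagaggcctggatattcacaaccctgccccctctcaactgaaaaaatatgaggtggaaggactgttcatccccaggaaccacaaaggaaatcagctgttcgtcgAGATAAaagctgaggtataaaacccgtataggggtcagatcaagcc
These lie, all on the minus strand, at chr7:48456343-48456592 for Mrgprb1, chr7:48558087-48558336 for Mrgprb2, chr14:56062311-56062560 for Mcpt4, chr14:55944676-55944925 for Cma1 and chr3:20242182-20242431 for Cpa3. The Mrgprb1 stretch held 2 GATA motifs, both AGATAG, and the other 4 held 1 each. The same was found in all 8 of the genes that matched the promoter table, among which Hdc held 1, Ms4a2 3 and Fcer1a 1, while Tpsb2 and Tpsab1 were not matched. Of all 32817 promoters of that table, 26.6% held such a motif in the same 250 bases. An E-box, CACGTG or CATGTG on either strand, was found in 1 of the 8 (Fcer1a) and in 17.6% of all promoters, and TATAAA on either strand in 3 of the 8 (Mcpt4, Cpa3 and Fcer1a) and in 12.4% of all. No match of one motif overlapped a match of another in these 8 stretches. As background, GATA factors such as Gata2 regulate mast cell genes, and a match is a run of letters, not a bound site. The promoters of Mrgprb1 and Mrgprb2 were identical at 66.8% of 187 aligned bases, and their coding sequences at 73.4%.

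All 10 genes had reads in both skin libraries. Together they took 23753 reads or 0.268% (exact binomial 95% interval 0.265 to 0.271) of the Cont library, and 42435 reads or 0.383% (0.379 to 0.386) of the cKO-labelled library. In the 4 cultured libraries the same genes had 74, 17, 11 and 40 reads in all, in the order control BECs, OE-BECs, control LECs, OE-LECs. The mast cell transcripts were thus almost wholly those of the sorted skin, with 2679.9 CPM in Cont against 4.18 CPM in cultured Cont BECs. In bulk libraries, a different number of cells of a type and a different amount of RNA per cell cannot be told apart, in either direction.

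**Figure D1:**
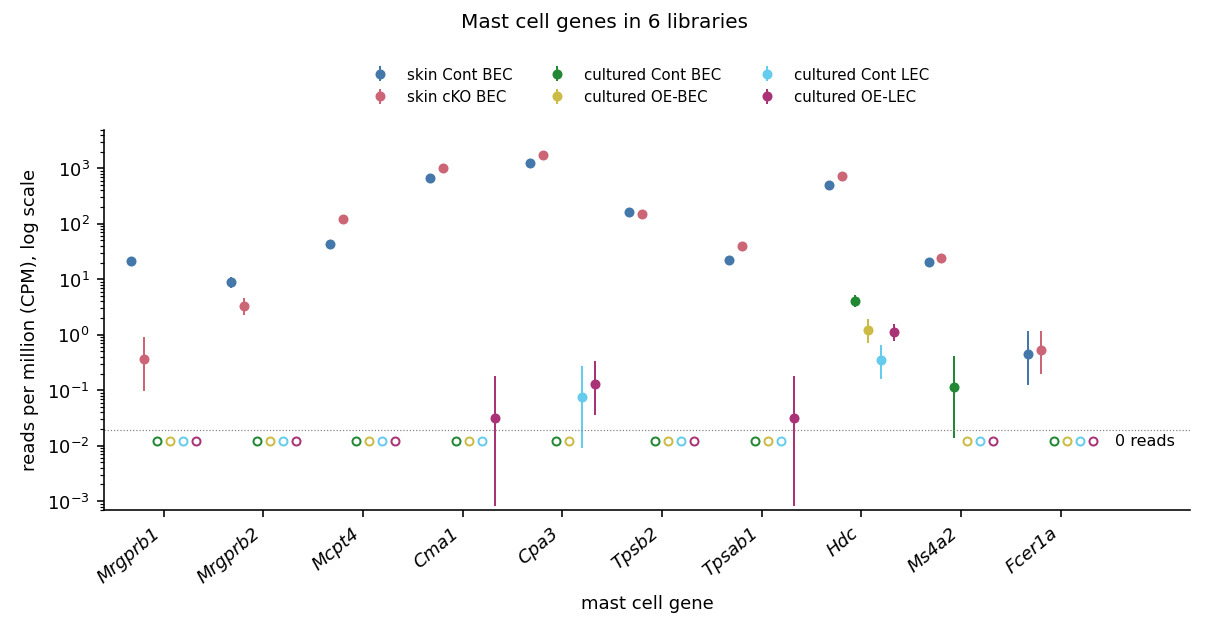
Reads per 1000000 reads (CPM, log axis) of the 10 genes in the 6 libraries, 1 point per library, with exact Poisson 95% intervals as bars for counting error and open circles for 0 reads. The skin libraries sit far above the cultured ones for 8 of the genes at over 1 CPM in both skin libraries, Mrgprb1 is at 21.5 CPM in Cont and 0.361 CPM in the cKO-labelled library, and Hdc is the only one of the 10 with reads in all 4 cultured libraries.

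Per length of exon, the order of levels in Cont ran from Cpa3 at 816.0 CPM per kb and Cma1 at 616.0 down through Tpsb2 (102.0), Hdc (76.7), Mcpt4 (39.6), Tpsab1 (10.8), Ms4a2 (7.38), Mrgprb1 (5.15) and Mrgprb2 (4.29) to Fcer1a (0.452). Neighbours in this order had separate counting intervals except Mrgprb1 and Mrgprb2. In the cKO-labelled library, Cpa3 (1142.5) and Cma1 (948.0) again led. Hdc (113.0) and Mcpt4 (108.0), whose intervals overlapped, now stood above Tpsb2 (94.2). Mrgprb1, at 0.0862, came last of the 10. Its interval overlapped that of Fcer1a (0.542), which in turn overlapped that of Mrgprb2 (1.56).

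Of the receptor genes, Mrgprb1 encodes a G protein-coupled receptor of the Mas-related family. It lies on chr7:48444113-48456342 of mm10, minus strand. It had 191 reads in Cont and 4 in the cKO-labelled library, which are 21.5 and 0.361 CPM, and 0 reads in each cultured library. It was 62.0-fold lower in the cKO-labelled library (23.8 to 230.0), a log2 ratio of -5.96 (95% interval -7.85 to -4.58). Mrgprb1 was the only one of the 10 genes called in the skin pair, where 2.05% of the 18784 genes with a read were called lower and 6.46% in either direction. The choice of the genes used this contrast, so nothing follows from that count.

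Mrgprb2 encodes the receptor through which basic peptides and several drugs make mouse skin mast cells degranulate. It lies on chr7:48550965-48558086, minus strand, in the same cluster as Mrgprb1. Its reads were 79 in Cont and 36 in the cKO-labelled library (8.91 and 3.25 CPM), with 0 reads in each cultured library. It was 2.85-fold lower, a log2 ratio of -1.51 (95% interval -2.12 to -0.93), just short of the 3-fold of the rule. The 2 receptor genes were therefore both lower in the cKO-labelled library, by unequal amounts and with intervals that did not overlap. No run of 50 bases in transcripts of either gene occurs in a transcript of another gene, so reads of that length can be assigned to one or the other.

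Granule proteases went the other way or differed little. Mcpt4, a chymase of connective tissue mast cells at chr14:56059629-56062313, had 389 reads in Cont and 1329 in the cKO-labelled library, or 43.9 and 120.0 CPM. It was 2.63-fold higher (log2 ratio 1.39, 95% interval 1.23 to 1.56), the largest difference upward among the 10 genes and just under the threshold. In the transcripts of Mcpt4, 5.48% of runs of 50 bases and 2.51% of runs of 75 bases were shared with another gene, mostly Cma2.

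Cma1, the other chymase, at chr14:55941451-55944675, had 5953 and 11453 reads in Cont and the cKO-labelled library, or 672.0 and 1033.2 CPM, with a log2 ratio of 0.57 (95% interval 0.52 to 0.61). It shared 5.38% of runs of 50 bases with Gm48934. Cpa3, the carboxypeptidase of mast cell granules at chr3:20215620-20242181, had 10969 and 19211 reads, or 1237.6 and 1733.1 CPM, with a log2 ratio of 0.43 (0.40 to 0.46). The 2 most abundant mast cell transcripts of skin thus were both higher in the cKO-labelled library, Cma1 1.48-fold and Cpa3 1.35-fold in normalized counts (log2 ratios of 0.62 and 0.49 when scaled by total counts). Among the cultured cells Cpa3 had reads only in the LEC libraries, 2 in Cont and 4 in OE-LECs, and Cma1 had 1 read in OE-LECs.

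The tryptases, trypsin-like enzymes of the granule, did not move together. Tpsb2 (chr17:25366305-25369098) had 1439 reads in Cont and 1664 in the cKO-labelled library, or 162.0 and 150.0 CPM, with a log2 ratio of -0.17 (95% interval -0.27 to -0.07). Tpsab1 (chr17:25343245-25345562) had 201 and 442 reads, or 22.7 and 39.9 CPM, with a log2 ratio of 0.76 (0.52 to 1.01). Tpsab1 was thus higher in the cKO-labelled library and Tpsb2 slightly lower, 1.12-fold. Their coding sequences were identical at 75.7% of aligned bases, and no run of 50 bases was shared with another gene. Apart from 1 read of Tpsab1 in OE-LECs, neither had a read in the cultured cells.

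Hdc encodes histidine decarboxylase, which makes histamine, and lies at chr2:126593667-126619299. It had 4344 reads in Cont and 8021 in the cKO-labelled library, or 490.0 and 724.0 CPM, with a log2 ratio of 0.51 (95% interval 0.45 to 0.56). Its ratio was thus close to those of Cma1 and Cpa3.

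The IgE receptor subunits gave fewer reads. Ms4a2, the beta chain (chr19:11615523-11623719), had 184 and 269 reads, or 20.8 and 24.3 CPM, with a log2 ratio of 0.17 (95% interval -0.11 to 0.45). Fcer1a, the alpha chain that holds IgE (chr1:173221284-173227214), had only 4 and 6 reads, or 0.451 and 0.541 CPM, with a log2 ratio of 0.21 (-1.87 to 2.48). For neither chain was a difference detectable at this depth, and for Fcer1a the interval leaves room for differences past the threshold in either direction. Fcer1g, the gamma chain shared with other Fc receptors and widely present in myeloid cells, had 576 and 1209 reads (log2 ratio 0.69, 0.55 to 0.84).

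**Figure D2:**
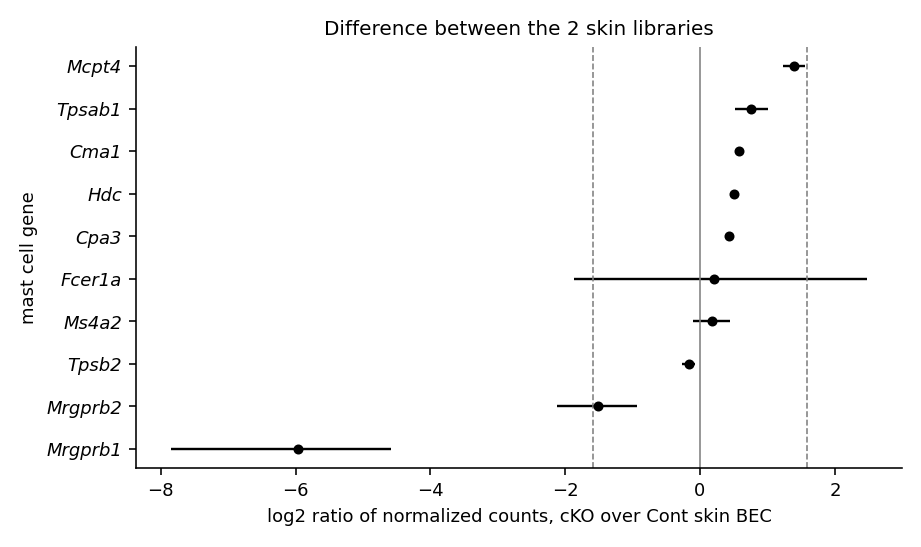
Log2 ratio of normalized counts, cKO-labelled library over Cont skin BECs, for the 10 genes, with exact 95% intervals from the reads as bars, which cover counting error only. Dashed lines mark a 3-fold difference: Mrgprb1 lies at -5.96, Mrgprb2 at -1.51 and Mcpt4 at 1.39, and the other 7 lie between -0.17 and 0.76.

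Set side by side, 7 of the 10 genes had a log2 ratio above 0 and 3 below, none was called higher (4.4% of all genes with a read were), and the median was 0.30 with a pseudocount of 1, against 0.01 over all genes with a read. The sum of the 10 was 2679.9 CPM in Cont and 3828.3 CPM in the cKO-labelled library, a log2 ratio of 0.46 (95% interval 0.44 to 0.48). Without Cpa3, which had the most reads, that ratio was 0.48. Of the mast cell reads, Cpa3 made up 46.2% (45.5 to 46.8) in Cont and 45.3% (44.8 to 45.7) in the cKO-labelled library, Cma1 25.1% (24.5 to 25.6) and 27.0% (26.6 to 27.4), and Hdc 18.3% (17.8 to 18.8) and 18.9% (18.5 to 19.3). The order of these 3 shares was the same in both libraries, and the share of Tpsb2 was lower in the cKO-labelled library, at 6.06% (5.76 to 6.37) and 3.92% (3.74 to 4.11). The share of Mrgprb1 was 0.804% (0.694 to 0.926) and 0.00943% (0.00257 to 0.0241), that of Mrgprb2 0.333% (0.263 to 0.414) and 0.0848% (0.0594 to 0.117), and that of Mcpt4 1.64% (1.48 to 1.81) and 3.13% (2.97 to 3.3).

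Markers of other cell types moved alongside. The summed level of 10 pan-leukocyte genes was 959.0 CPM in Cont and 1522.0 CPM in the cKO-labelled library (log2 ratio 0.61), with all 10 above 0 and 1 of them (Cd52) called higher. The summed level of 12 macrophage genes was 4179.5 and 6530.2 CPM (0.59), with 10 above 0 and 1 (Marco) called higher. That of 12 blood endothelial genes was 6896.0 and 4469.7 CPM (-0.68), with 10 below 0 and none called. No gene of these 3 lists was at 0 in either skin library. Per read of Ptprc, Cma1 had 4.94 reads in Cont and 4.89 in the cKO-labelled library, Hdc 3.6 and 3.43, and Cpa3 9.1 and 8.21. On that scale the values were 0.323 and 0.568 for Mcpt4, 0.158 and 0.00171 for Mrgprb1, 0.0655 and 0.0154 for Mrgprb2 and 1.19 and 0.711 for Tpsb2. They were 0.167 and 0.189 for Tpsab1, 0.153 and 0.115 for Ms4a2 and 0.00332 and 0.00256 for Fcer1a. No interval was computed for these quotients, so small differences among them are not read as such. The summed level of 11 keratinocyte genes was 246.0 and 392.0 CPM, with a median log2 ratio of 0.89 (0.61 among genes with at least 10 reads) and 8 above 0. Of these, 4 were called higher, of which Krt1 (33 and 254 reads) and Krt10 (51 and 263) had more than 10 reads while Lor (1 and 8) and Ivl (1 and 7) had intervals that span 0. The list of neutrophil and lymphoid genes was mixed, with 4 of 11 above 0, a median of -0.25 (-0.85 among genes with at least 10 reads), S100a8, Mpo and Cd3e called lower and Nkg7 called higher. Of 4 erythroid genes with a read, Hbb-y was called higher (18 and 249 reads, log2 ratio 3.41) and the other 3 were below 0. The lists of fibroblast (median -0.48), pericyte (-0.37), skeletal muscle (-0.64) and adipocyte genes (-0.78, with Adipoq, Plin1 and Cidec of 7 called lower) were mostly lower. The part of these cell types in the values of the 10 genes was not tested.

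Other genes of mast cell biology, 86 in 8 lists, were counted in the same pair. Of the 72 with a read, 58 had a log2 ratio above 0 and 14 below, 11 were called higher and 1 lower, and the median was 0.61. Over all genes with a read, 4.4% were called higher and 2.05% lower, with a median of 0.01. Among 15 other granule genes, 5 were called higher and none lower. Mcpt1, a chymase of mucosal mast cells, had 0 reads in Cont and 53 in the cKO-labelled library, with a lower 95% limit of the log2 ratio of 3.42. Mcpt2, the other mucosal chymase, had 15 and 106 reads (log2 ratio 2.44, 95% interval 1.66 to 3.33). Both mucosal chymase genes were thus higher, from few reads. Their coding sequences were identical to that of Mcpt4 at 86.4% (Mcpt1) and 79.4% (Mcpt2) of aligned bases.

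Tpsg1, the membrane-anchored tryptase, had 17 and 113 reads (log2 ratio 2.35, 95% interval 1.61 to 3.18). Gzmb, a granzyme of cytotoxic lymphocytes that mast cells can also make, had 10 and 115 reads (3.15, 2.21 to 4.24), and Tph1, which starts serotonin synthesis, 28 and 182 (2.32, 1.74 to 2.95). These 3 genes were all called higher. Nkg7, another granule gene of cytotoxic lymphocytes, was higher too, with 5 and 42 reads (2.69, 1.36 to 4.39), and its part in the Gzmb value was not tested. The granule genes with the most reads differed less, with Lamp1 at 3856 and 8730 reads (0.80), Srgn, the core protein of the heparin proteoglycan, at 959 and 1989 (0.67), and Cd63 at 608 and 1271 (0.69). Lamp1, Srgn and Cd63 also had reads in cultured Cont BECs, at 467.0, 113.0 and 207.0 CPM. In Cont skin BECs they had 435.0, 108.0 and 68.6 CPM, and which cells these reads came from was not tested.

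Of 12 surface receptor genes, all had a log2 ratio above 0 and 1 was called. Kit, the receptor for stem cell factor on which mast cells depend, had 2073 reads in Cont and 3040 in the cKO-labelled library (log2 ratio 0.17, 95% interval 0.09 to 0.26). Kit also had reads in the cultured cells, at 397.0 CPM in Cont BECs and 220.0 CPM in Cont LECs, and which cells its skin reads came from was not tested. Il1rl1, the receptor for interleukin-33, had 888 and 3277 reads (1.51, 1.40 to 1.61), a 2.84-fold difference. Csf2rb, the shared chain of the receptors for interleukin-3 and related cytokines, had 1110 and 1813 reads (0.33, 0.22 to 0.44). Cd200r3, found on mast cells and basophils, had 29 and 288 reads (2.93, 2.38 to 3.54) and was called higher.

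Growth factor genes were divided, with 3 of 7 above 0 and 4 below, a median of -0.57 (-0.20 among genes with at least 10 reads) and 1 called higher. Kitl, the ligand of Kit, had 3384 reads in Cont and 1766 in the cKO-labelled library (log2 ratio -1.32, 95% interval -1.40 to -1.23), a 2.49-fold difference short of the rule. Cxcl12, a chemokine, had 672 and 482 reads (-0.86, -1.03 to -0.69), and Tgfb1 438 and 780 (0.45, 0.28 to 0.63). Il3 was called higher on 2 and 11 reads, with an interval of -0.11 to 5.30 that spans 0. Kitl was thus lower in the same library in which Kit was slightly higher.

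None of the 12 genes of IgE receptor signalling was called, although 10 were above 0 with a median of 0.61. Those with the most reads were Lyn, a kinase that starts the signal, at 2640 and 3579 reads (log2 ratio 0.06), Plcg1 at 2207 and 2202 (-0.38) and Inpp5d, an inhibitory phosphatase, at 1303 and 2449 (0.53). Lyn, Plcg1 and Inpp5d had 76.2, 396.0 and 249.0 CPM in cultured Cont BECs and 298.0, 249.0 and 147.0 CPM in Cont skin BECs. Of 10 transcription factors, 8 were above 0, with a median of 0.53. Gata1 was called higher, from 17 to 76 reads (1.78, 95% interval 1.01 to 2.63). Those with the most reads were Gata2 at 581 and 1162 (0.62, 0.48 to 0.77), Stat5b, which acts downstream of cytokine receptors, at 616 and 828 (0.05, -0.10 to 0.20) and Runx1 at 530 and 696 (0.02, -0.15 to 0.18). Gata2, Stat5b and Runx1 had 105.0, 48.5 and 8.14 CPM in cultured Cont BECs and 65.6, 69.5 and 59.8 CPM in Cont skin BECs. Which cells the skin reads of these signalling and transcription factor genes came from was not tested. Tal1 and Bhlhe40 were the 2 below 0, at -0.50 and -0.42, and no transcription factor of this list was called lower.

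Eicosanoid synthesis, the making of prostaglandins and leukotrienes, had 7 of 8 genes above 0 and a median of 1.07. Alox5, which starts leukotriene synthesis, had 141 reads in Cont and 630 in the cKO-labelled library (log2 ratio 1.78, 95% interval 1.52 to 2.06). Cyp11a1, an enzyme of steroid synthesis kept in this list, had 196 and 985 reads (1.95, 1.73 to 2.18). Both were called higher. Hpgds, which makes prostaglandin D2, the main prostaglandin of mast cells, had 1085 and 2466 reads (0.81, 0.70 to 0.91). Alox5ap, which hands substrate to Alox5, had 336 and 948 (1.12, 0.94 to 1.30). Ptgs2, the inducible cyclooxygenase, had 418 and 141 reads (-1.95, -2.23 to -1.67) and was the only one of the 72 genes called lower.

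Basophils share several of these transcripts, so 6 of their genes were listed too. Mcpt8, a basophil protease, had 14 reads in Cont and 164 in the cKO-labelled library (log2 ratio 3.17, 95% interval 2.38 to 4.08) and was called higher with Cd200r3. Prss34, the other basophil protease, had 50 and 79 reads (0.28, -0.25 to 0.82). Mcpt8 was thus higher by 9.01-fold without a like difference in Prss34. Itga2 had the most reads of this list, 2164 and 1957 (-0.52, -0.61 to -0.43), and Cebpa had 89 and 213 (0.88, 0.52 to 1.25). A list of 17 other Mrgpr genes, which does not hold Mrgprx2, had reads for 5 and no calls, and its leading genes were Mrgpre at 24 and 27 reads and Mrgprf at 11 and 10. Mrgprx2, with 20 and 5 reads, was called lower and is described with its cluster.

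**Figure D3:**
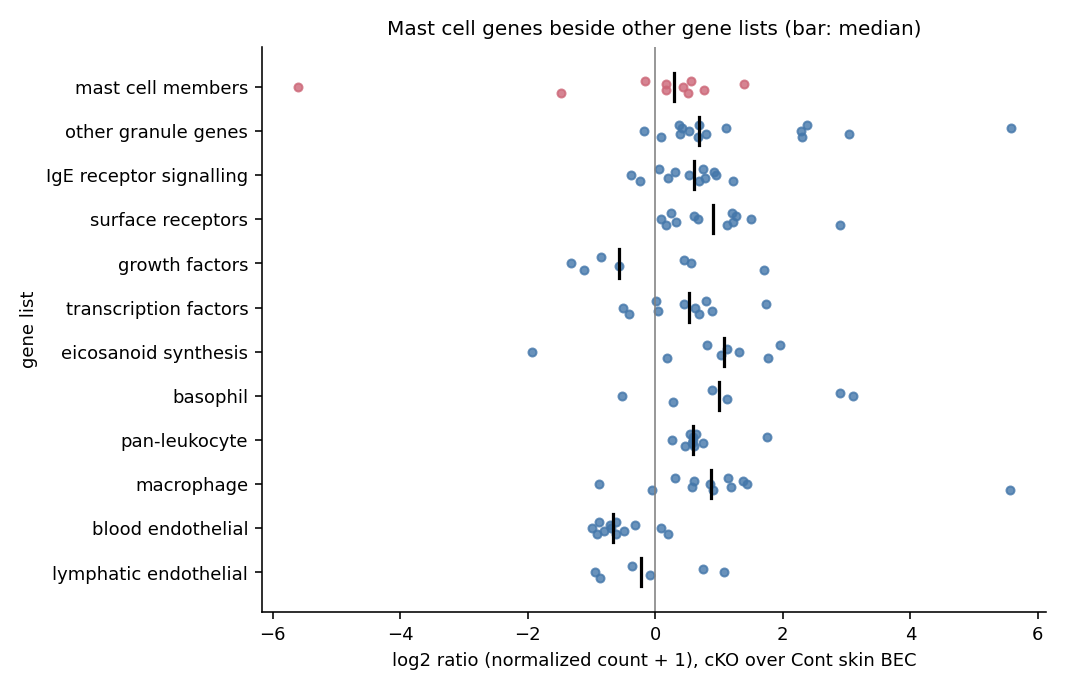
Log2 ratio of normalized counts with a pseudocount of 1, cKO-labelled library over Cont skin BECs, for the 10 mast cell genes (top row, red) and 11 other gene lists, 1 point per gene with a read and a bar at the median. The median is 0.30 for the 10 genes, 0.69 for other granule genes, 0.90 for surface receptors, 0.59 for pan-leukocyte genes and -0.66 for blood endothelial genes.

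The position of the genes was looked at next, since 6 of the 10 lie in 3 clusters. In the Mrgprb cluster of chromosome 7, reads were absent for 3 of 7 genes (Mrgprb5, Mrgprb4 and Mrgprb3), at 0 in both skin libraries. Mrgprx2, which lies between Mrgprb1 and Mrgprb2, 22.3 kb from Mrgprb1, had 20 reads in Cont and 5 in the cKO-labelled library (log2 ratio -2.38, 95% interval -4.15 to -0.92) and was called lower. Mrgprb8, on the other side, had 4 and 7 reads (0.43, -1.55 to 2.65). The 3 adjacent genes Mrgprb1, Mrgprx2 and Mrgprb2 were thus all lower, while Zdhhc13, the next gene outside the cluster, had 224 and 300 reads (0.04, -0.21 to 0.30). The coding sequences of Mrgprb1 and Mrgprx2 were identical at 85.1% of bases.

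In the chymase cluster of chromosome 14, Mcpt1, Mcpt2 and Mcpt8 were called higher around Mcpt4, while Cma2, next to Cma1, had 14 and 16 reads (log2 ratio -0.19, 95% interval -1.31 to 0.96). Ctsg, a granule protease at the far end, had 12 and 35 reads (1.17, 0.19 to 2.25). In the tryptase cluster of chromosome 17, Tpsg1 starts 0.2 kb beyond the end of Tpsb2. Tpsg1 was called higher and Tpsb2 was not, so neighbours differed within this cluster. Tpsg1 overlaps Cacna1h, which runs on the opposite strand and had 77 and 356 reads (1.83, 1.47 to 2.21), so reads of this pair are uncertain. In all, 33 other protein-coding genes flank the 10, of which 21 were above the floor in a skin library, 5 were called higher and 1 (Mrgprx2) lower, beside 4.4% and 2.05% of all genes with a read.

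**Figure D4:**
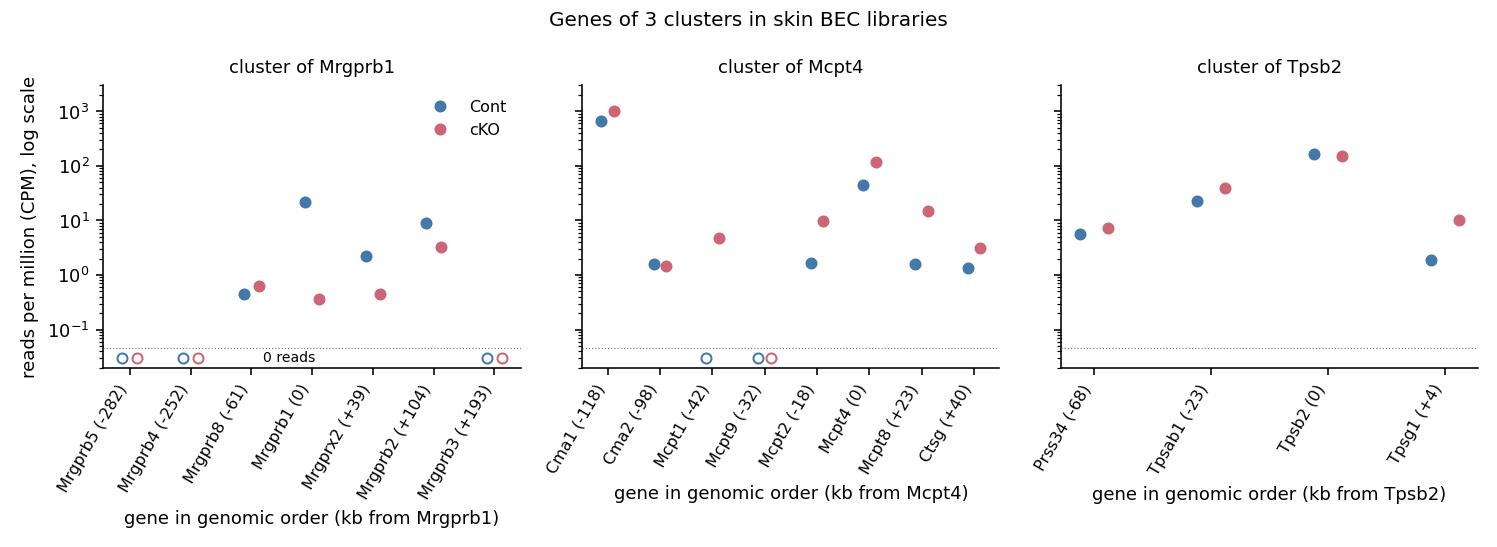
Reads per 1000000 reads (CPM, log axis) in the Cont and cKO skin BEC libraries for the genes of the clusters of Mrgprb1, Mcpt4 and Tpsb2, in genomic order with the distance between gene midpoints in kb, and open circles for 0 reads. Mrgprb1, Mrgprx2 and Mrgprb2 lie lower in cKO, and Mcpt1, Mcpt2, Mcpt4, Mcpt8 and Tpsg1 lie higher.

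Genes whose distribution over the 6 libraries was most like that of Mrgprb1 were ranked by a distance that is 0 for the same shares of CPM and 1 for no overlap, among 14328 genes with at least 50 reads. The nearest were Tcf24 (863 reads in Cont and 10 in the cKO-labelled library, distance 0.00729), Klrb1f (61 and 2, distance 0.00908), Car3 (1036 and 36, distance 0.0108) and Serpina3h (106 and 4, distance 0.0128). The 10 mast cell genes were left out of this ranking, so none of them could be listed. The first 10 genes of the ranking went on with Pkhd1l1, Gm13154, Il1b, Btla, Gpd1 and Gm14403. With a minimum of 200 reads, 5 of these 10 were still listed. The others had fewer than 200 reads over the 6 libraries, so the filter itself removed them and this count does not show how stable the order is. The genes nearest to the sum of the 10 were Slc7a8 (559 and 998 reads), Galnt12, Efs, As3mt, Prdm16, Tenm3, Il10ra, Ctsc (1784 and 3205), Nckap1l and Spi1.

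In the cultured cells, where overexpression was measured, 5 of the 10 genes (Mrgprb1, Mrgprb2, Mcpt4, Tpsb2 and Fcer1a) had 0 reads in all 4 libraries. A count of 0 allows up to 3 reads (a 1-sided 95% limit), or 0.17, 0.215, 0.115 and 0.0967 CPM in the same order as above. Against that floor in cultured Cont BECs, Cpa3 was at least 7295.7-fold and Cma1 at least 3959.5-fold more abundant in Cont skin BECs on the CPM scale. Of Ms4a2, cultured Cont BECs gave 2 reads and the other 3 libraries 0.

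Hdc was the exception. In BECs it had 72 reads in Cont and 17 with overexpression (4.07 and 1.22 CPM), and in LECs 9 and 34 (0.345 and 1.1 CPM). In OE-BECs it was 3.25-fold lower than in Cont (log2 ratio -1.70, 95% interval -2.56 to -0.92) and was the only one of the 10 called lower, in a pair where 4.63% of genes with a read were called lower, 7.05% higher and 11.7% either way. In OE-LECs it was 3.22-fold higher (1.69, 0.60 to 2.93) and was the only one called higher, in a pair where 2.38% of genes were called higher, 1.79% lower and 4.18% either way. Hdc thus differed in opposite directions in the pairs labelled BEC and LEC. On the CPM scale its level was 120.0-fold (95.4 to 154.0) lower in cultured Cont BECs than in Cont skin BECs. In cultured Cont LECs, on 9 reads, it was 1422.2-fold (749.0 to 3112.5) lower than in Cont skin BECs. Of the 86 other genes of mast cell biology, 57 had a read in the BEC pair, where 5 were called higher and 8 lower, and 52 in the LEC pair, where 1 was called higher and 3 lower. Of the higher calls, Mrgpra4, Mrgpra6 and Syk (0 and 3 reads each) and Fcer1g (2 and 7) in OE-BECs and Ccr3 (0 and 5) in OE-LECs had intervals that span 0. Among the lower calls, so did Mcpt2 in OE-BECs, on 4 and 1 reads (-1.62, -7.24 to 1.72). Kit and Csf2rb were called lower in both pairs. Csf2rb had 56 and 0 reads in Cont and OE-BECs, and 14 and 1 in the LEC pair. Kit had far more, with 7018 and 1284 reads in Cont and OE-BECs (-2.07, -2.15 to -1.98) and 5756 and 2034 reads in Cont and OE-LECs (-1.73, -1.81 to -1.66).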

How the data were processed

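Total RNA of sorted skin BECs and of cultured BECs and LECs was made into ScriptSeq v2 libraries, 1 per condition. The authors trimmed adapters with skewer, aligned reads to mm10 with STAR, counted reads per gene with VERSE and deposited raw counts for 24421 gene symbols. Whether the counting used strand is not certain from the sources used here, so reads of overlapping genes are uncertain. All columns belonged to a sample, in groups set by the labels. Totals were 8863349 and 11084686 reads (skin Cont and cKO), 17685615 and 13933651 (cultured BECs, Cont and OE) and 26117161 and 31032461 (LECs, Cont and OE).

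Counts were normalized here within each pair by median of ratios (DESeq2 1.42.0, R 4.3.3), with factors of 0.877 and 1.14 in skin. The rule for calls is that of the study. No test was run, as no condition had a replicate. Intervals (exact, 95%) and the floor of 3 reads cover counting error only, since PCR copies cannot be told from separate molecules without identifiers. A ratio against 0 reads is given against that floor or by its lower limit. Positions and exonic lengths came from GENCODE M21 and promoters from RefSeq (GRCm38.p6). Runs of 50 and 75 bases were compared across all GENCODE transcripts. Python 3.11.15, numpy 2.4.6, scipy 1.17.1, pandas 2.3.3 and matplotlib 3.10.9 were used. Normalization, calls and intervals were tried on simulated counts with counting error only and large known folds in genes with many reads. That trial does not cover changes in genes with few reads, spread between replicates or the other steps.

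The 10 genes and all gene lists were chosen with earlier results of these data known. Genes named are the 10, and genes of the mast cell and basophil lists that, in the skin pair, were called or among the 3 with the most reads in a list. Also named are the sort antigens, Dot1l, flanking genes (in the 3 clusters by name, elsewhere as counts) and the genes most alike over the 6 libraries. Of the list genes called in the cultured pairs, only some are named. A few more list genes (Fcer1g, Prss34, Tal1, Bhlhe40, lymphatic markers and marker genes that were called) were named after their values were seen. Alternatives were factors from all 6 libraries, TMM (edgeR 4.0.16), scaling by total counts, a minimum of 20, a fold over 2, pseudocounts of 1 and 0.1, a filter of 10 reads, summed paralogs and 200 reads for likeness.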

Additional observations from a re-analysis of the deposited data

Results flagged for a closer look

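Hdc differed in opposite directions under overexpression of Dot1l in the cultured pairs labelled BEC and LEC. Its log2 ratio of OE over Cont was -1.70 in cultured BECs and 1.69 in cultured LECs. Each value rests on 1 library per condition and on 9 to 72 reads, and the difference between the pairs was not tested.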

How the results depend on the processing

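Mrgprb1 was called lower, and no gene of the 10 was called higher, with size factors from all 6 libraries, TMM factors, total counts, a minimum of 20, a pseudocount of 1 and a filter of 10 reads. With a fold over 2, 1 of the 10 was called higher (Mcpt4) and 2 lower (Mrgprb1 and Mrgprb2). The calls of Hdc in the cultured pairs stood under each of these settings. Over all genes, 827 were called higher and 386 lower in the skin pair. A minimum of 20 gave 372 and 153, and a fold over 2 gave 1657 and 837. Size factors from all 6 libraries gave 1063 and 556, so these counts depend on the normalization too. The log2 ratio of the summed reads was 0.46, and 0.51 with total counts. Total counts moved the median of all genes by 0.06. Of the other values recomputed, 68 stayed and 12 moved. These include Mrgprb1 and Mrgprb2 summed (-3.13), Mcpt4 and Cma1 summed (0.63) and the tryptases summed (-0.02), and the growth factor median, which was -0.20 among genes with at least 10 reads. No paired analysis was possible because each condition has 1 library, and for the same reason no replicate could be left out. Depth limits Fcer1a most, with 4 and 6 reads.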
